A study of Mus musculus with 4 samples.

Results

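The sites described here were listed as peaks for both wild-type EBF1 (EBF1-wt) and the substitution mutant EBF1-H240A, and had the lowest EBF1-H240A signal relative to EBF1-wt. They are 561 of 2242 shared sites (25%). A shared site is a pair of intervals, 1 from each peak list, with at least 1 bp in common. Intervals were paired 1 to 1 by largest overlap on chromosomes 1 to 19 and X. Members were selected on the summit pileup of both lists: the EBF1-H240A pileup divided by the EBF1-wt pileup had to lie at or below the 25th percentile of all pairs, which was 0.533. Pileup, fragment counts, fold enrichment and q-values therefore describe the members and support nothing about them.

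The cells were A-MuLV (Abelson murine leukemia virus) transformed pro-B cells of C57BL/6 background, a cultured line that models early B-cell precursors. Both populations were Ebf1fl/fl;RERTCre, so they carried a floxed endogenous Ebf1 and a tamoxifen-inducible Cre. Both received 2 μM 4-hydroxytamoxifen (4-OHT) from 24 h after transduction, with a pmys vector that encodes GFP together with either EBF1wt or EBF1-H240A, and GFP+ cells were sorted. Chromatin was immunoprecipitated and sequenced (ChIP-seq) in 1 library per protein, each with 1 input library, and peaks were listed with mm9 coordinates, which are given here without gene names. With 1 library per protein there is no replicate error, so no difference below was tested and every interval covers counting error only. Endogenous EBF1 that may remain after deletion would add to both lists and was not measured.

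EBF1 is a DNA-binding transcription factor that is required for commitment to the B lineage. It binds palindromic DNA sites as a dimer, together with factors such as PAX5 and E2A in B-cell precursors, and it is known for opening and activating genes of the pre-B-cell receptor. In ChIP-seq, the pileup at a summit counts the DNA fragments that cover the tallest point of a peak, and it depends on occupancy, on antibody recovery and on sequencing depth. H240A replaces histidine 240 of the protein with alanine.

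EBF1-H240A fragments at the members were about 0.63 of what the typical shared site had for the same EBF1-wt height. EBF1-wt pileups were whole multiples of 0.635 and EBF1-H240A pileups were whole numbers, so both were converted to fragments at the summit. The median shared site had 0.441 EBF1-H240A fragments for each EBF1-wt fragment. A scaling inferred from the lowest backgrounds and shortest peaks of the 2 lists predicted 0.443. It took the EBF1-wt library as 2.71 times as deep and the fragment lengths as 190 and 228 bp, neither of which was given directly. At the members the fragment ratio ran from 0.0991 to 0.338, with a median of 0.278, which is 0.631 of the median shared site. At the other 1681 shared sites it ran from 0.338 to 2.26, with a median of 0.495. Members are thus low relative to other shared sites, and the ratio by itself does not give the share of EBF1-wt occupancy that EBF1-H240A kept.

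**Figure D1:**
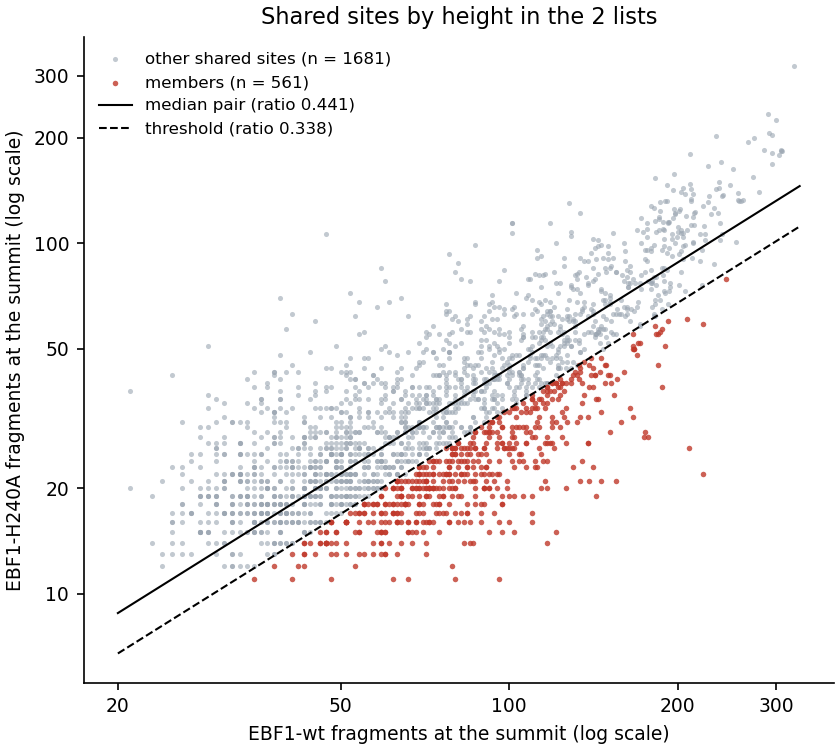
EBF1-wt fragments (horizontal, log scale) against EBF1-H240A fragments (vertical, log scale) at the summit of each of 2242 shared sites, 1 point per site. The 561 members lie below the dashed threshold line at 0.338 by construction, and the solid line is the median shared site at 0.441.

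The ratios formed a continuous spread, with no gap at the threshold. The 3 members nearest to it had 26 against 77 fragments (EBF1-H240A against EBF1-wt, chr5:141096001-141096385), 46 against 136 (chr7:148603560-148604013) and 45 against 133 (chr10:42546997-42547348). The 3 sites just outside had 22 against 65 (chr17:73456989-73457262) and 20 against 59 at both chr16:58532664-58532977 and chr18:61491407-61491730. Their fragment ratios, 0.338 to 0.339 outside and 0.338 inside, differed by far less than the counting interval of any of them, for example 0.236 to 0.478 at the chromosome 10 site. Membership near the threshold is therefore arbitrary at this depth.

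Counting error alone was as wide as the distance to the median shared site at many members. The exact 95% interval of the fragment ratio lay wholly below 0.441 at 269 members (48.0%) and covered it at 292 (52.0%). The ratio threshold itself took 25% of shared sites, and sites with the interval wholly below the median shared site were 12.0% of all 2242, all of them members. The rule used these same fragments, so nothing is read from the comparison of those shares.

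The lowest ratio of all shared sites belonged to chr18:10918273-10918768, a tall and isolated EBF1-wt peak. It had 222 EBF1-wt fragments (exact Poisson interval 193.8 to 253.2) and 22 EBF1-H240A fragments (13.8 to 33.3), where the ratio of the median shared site would give 97.9. Among the 2242 sites it ranked 46 by EBF1-wt pileup and 1499 by EBF1-H240A pileup, and no other EBF1-wt summit lay within 774420 bp. A second tall site, chr1:154613445-154613874, had 209 fragments (181.6 to 239.3) for EBF1-wt and 26 (16.98 to 38.1) for EBF1-H240A, and ranked 67 and 1240. These 2 sites were the only ones that were both among the 10 lowest ratios and among the 10 tallest members. In both, the EBF1-H240A summit was within 12 bp of the EBF1-wt summit, so the low count was read at the same position.

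Chromosome 14 held 3 of the 10 lowest members, far apart from each other. Of its 75 shared sites, 21 were members (28.0%, 19.1 to 39.0), against 25% of all shared sites. The site chr14:75131703-75132381 had 96 EBF1-wt and 11 EBF1-H240A fragments, a ratio of 0.115 (0.0554 to 0.214). The site chr14:71291855-71292272 had 117 and 14 fragments, a ratio of 0.120 (0.0635 to 0.209), and its nearest EBF1-wt neighbour, 8042 bp away, was also a member, with a ratio of 0.278. At chr14:21748216-21749107 there were 121 and 15 fragments, but this EBF1-wt interval spanned 892 bp and the EBF1-H240A summit lay 396 bp from the EBF1-wt summit. The 2 counts of that pair were thus read at different positions of 1 broad peak, where the EBF1-wt local background was 6.00 against a member median of 2.85.

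The other members of the lowest 10 had between 80 and 155 EBF1-wt fragments. Chr4:57069562-57070012 had 143 EBF1-wt and 19 EBF1-H240A fragments, and chr10:40069586-40070025 had 155 and 21. Chr17:5795846-5796248 had 80 and 11, and its EBF1-H240A peak had the lowest −log10 q in that whole list, 2.01. Chr15:97785679-97786103 had 146 and 21, with summits 9 bp apart, and chr5:138010858-138011229 had 110 and 16, with summits 4 bp apart. The upper bound of the ratio at these 10 sites was at most 0.259, below 0.441 in each. Apart from the chromosome 18 and chromosome 1 sites, they ranked between 228 and 945 by EBF1-wt pileup and between 1583 and 2236 by EBF1-H240A pileup.

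Apart from the chromosome 18 and chromosome 1 sites, the tallest members had ratios nearer to the threshold. The member with the most EBF1-wt fragments, chr6:115533448-115533959, had 244 for EBF1-wt and 79 for EBF1-H240A (ratio 0.324, 0.248 to 0.419), and it was the only member in the tallest decile of shared sites by EBF1-H240A pileup. Its neighbour 1183 bp away, chr6:115532264-115532780, was also among the 10 tallest, with 187 and 39 fragments (ratio 0.209, 0.144 to 0.296). Chr9:120495652-120496067 had 222 and 59 fragments, with summits 2 bp apart and the highest EBF1-wt fold enrichment of any member, 48.0. Chromosome 8 held 2 of these sites, chr8:124809712-124810290 with 208 and 61 fragments and chr8:124867620-124868043 with 187 and 57. The remaining 3 were chr6:113327363-113328246 with 192 and 60 fragments, chr5:102364856-102365305 with 190 and 51, and chr10:59681959-59682378 with 186 and 56. These 8 sites had fragment ratios between 0.209 and 0.324.

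**Figure D2:**
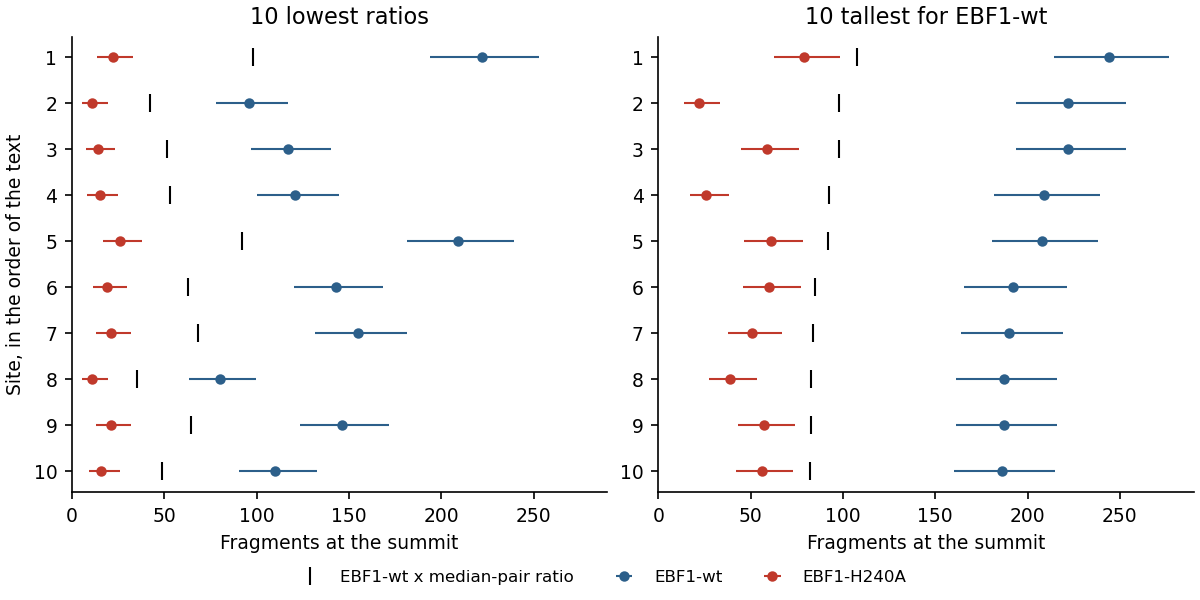
Fragments at the summit (horizontal) with exact 95% Poisson intervals (bars, counting error only) for the 10 members with the lowest ratio, at the left, and the 10 members with the most EBF1-wt fragments, at the right, from EBF1-wt (blue) and EBF1-H240A (red). Sites run in order of ratio or of EBF1-wt height; the black tick is the EBF1-wt count times 0.441, and every red interval ends to the left of it, by the choice of the sites.

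Most members were sites of middle to high EBF1-wt signal and weak EBF1-H240A signal. Their EBF1-wt fragments ran from 35 to 244 with a median of 84, against 64 at the other shared sites. Their EBF1-H240A fragments ran from 11 to 79 with a median of 22, against 33. By EBF1-wt pileup, 369 of 561 (65.8%) stood above the median shared site, yet only 29 were in the tallest decile. By EBF1-H240A pileup, 428 (76.3%) were at or below the median. The EBF1-wt call was strong at nearly all of them, with a −log10 q of at least 10 at 556 (99.1%), but the EBF1-H240A call passed that value at 349 (62.2%). At the other shared sites the same counts were 1451 (86.3%) and 1403 (83.5%) of 1681.

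Members took different shares of the shared sites along the range of heights. They were 1 of 225 sites (0.444%) in the lowest decile by EBF1-wt pileup, between 39.7% and 43.3% in the fifth to eighth deciles, 31.2% in the ninth and 12.9% (Wilson interval 9.13 to 17.9) in the tallest. In the next deciles above the lowest (36 to 44 and 44 to 52 fragments) they were 4.46% and 12.9%. The lowest EBF1-H240A pileup listed was 10, so a shared site needed at least 18.8 in EBF1-wt pileup, about 29.6 fragments, to be a member, and 63 of the 2242 sites had less. A site with a low EBF1-wt peak and a lower ratio would have had no EBF1-H240A peak and would count as EBF1-wt-only.

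Set among all 4419 EBF1-wt peaks of these chromosomes, members lay next to the heights at which EBF1-wt-only peaks became rare. In the seventh decile of EBF1-wt pileup (56 to 69 fragments), 181 of 442 peaks (41.0%) were EBF1-wt-only and 96 (21.7%) were members. In the eighth (69 to 87 fragments) the counts were 94 (21.3%) and 146 (33.0%), and in the ninth (87 to 121) they were 35 (7.92%) and 166 (37.6%, Wilson interval 33.2 to 42.2). In the tallest decile (121 to 322) 4 peaks were EBF1-wt-only and 95 (21.5%, 17.9 to 25.6) were members. The rule used these heights, so the shares are given as a description.

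**Figure D3:**
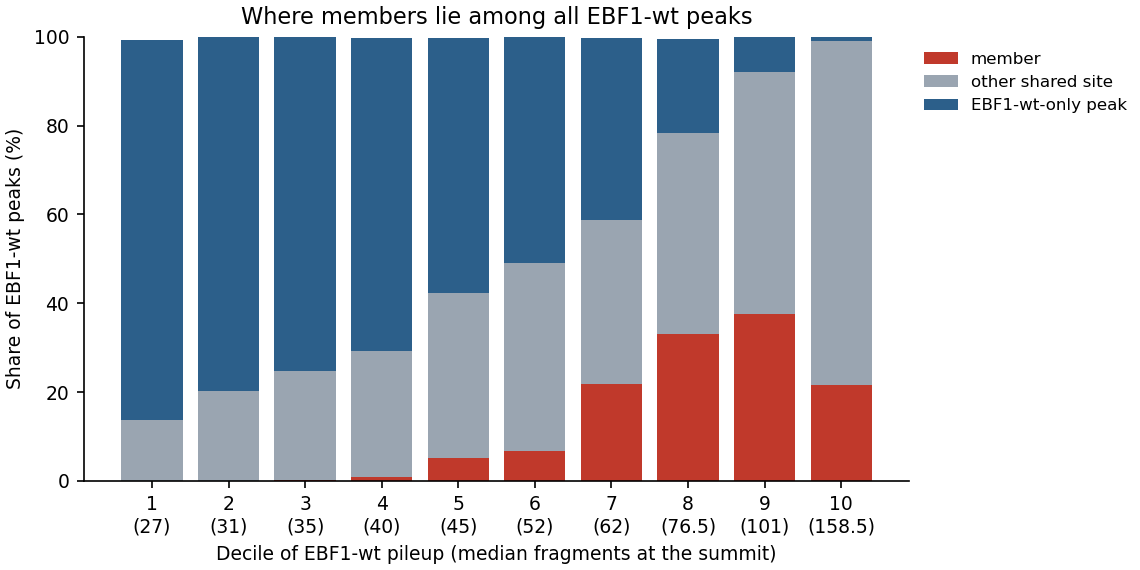
All 4419 EBF1-wt peaks on chromosomes 1 to 19 and X, split into deciles by EBF1-wt pileup (horizontal, with the median fragments at the summit in brackets), and the share (vertical, %) that were members (red), other shared sites (grey) or EBF1-wt-only (blue). Members rise to 37.6% in the ninth decile and are 21.5% in the tallest; the small remainder in some bars are shared peaks left without a partner.

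Summit position was not used to choose the members. The EBF1-wt and EBF1-H240A summits lay a median of 27 bp apart at members and 20 bp at the other shared sites, and within 50 bp at 80.6% (77.1 to 83.6) and 85.4% (83.6 to 87.0). At like EBF1-wt counts the medians stayed apart, at 32 bp for members against 22 bp for other sites with 50 to 74 EBF1-wt fragments, 23 against 18 bp with 75 to 99, and 22 against 15 bp in the next range, which starts at 100. They came closer at like EBF1-H240A counts, a value the rule used. Among sites with 20 to 29 EBF1-H240A fragments, the median distance was 28 bp both for 225 members and for 450 other sites. It was 30 bp against 30.5 bp for sites with 15 to 19 fragments, and 18 bp against 19 bp for sites with 30 to 49. These medians differed by at most 1 bp. What sets the distance was not tested.

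Peak widths followed the heights of the same list. EBF1-H240A intervals had a median width of 310 bp at members and 367 bp at other shared sites, and EBF1-wt intervals 361 and 326 bp. The EBF1-H240A interval was the narrower of the pair at 428 of 561 members (76.3%) and at 506 of 1681 other sites (30.1%). A peak ends where its pileup no longer passes the threshold, so width and pileup are not separate evidence. Among sites with 20 to 29 EBF1-H240A fragments, the EBF1-H240A widths were 315 bp at members and 306.5 bp at the others. Members had the narrower EBF1-H240A intervals in the other two ranges, 257 against 270 bp at 15 to 19 fragments and 363 against 374.5 bp at 30 to 49.

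The local background, the signal the peak caller expects around each site, had similar medians at members and elsewhere. Its median in the EBF1-wt list was 2.85 at members and 2.85 at the other shared sites. In the EBF1-H240A list it was 1.74 and 1.92, on that list's own scale. The EBF1-H240A background was also lower at members in each alternative that kept the pileup ratio. It was 1.67 against 1.92 when only peaks with a −log10 q of at least 10 entered. Within deciles of EBF1-wt pileup it was 1.62 against 1.92, and without chromosome 17 it was 1.74 against 1.85. At like counts the EBF1-H240A background was not always lower at members. With 15 to 19 EBF1-H240A fragments it was 1.61 at members against 1.57, and with 30 to 49 it was 2.27 against 2.09. With 20 to 29 it was 1.76 against 1.92. With 50 to 74 EBF1-wt fragments it was 1.73 against 2.09, and with 75 to 99 it was 1.90 against 2.27. In the next range, which starts at 100, it was 1.92 against 1.77. Sites were also chosen by the ratio of fold enrichments, which has the backgrounds in it. Members then had the higher EBF1-H240A background (2.29 against 1.74) and the lower EBF1-wt background (2.28 against 3.0). That choice favours such backgrounds by its formula, so nothing is read from this reversal. Of the 561 members, 368 (65.6%) were also in the lowest quartile of the fold ratio.

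Members had close EBF1-wt neighbours about as often as other shared sites. Another EBF1-wt summit lay within 10 kb of 162 of 561 members (28.9%, 25.3 to 32.8) and of 497 of 1681 other sites (29.6%, 27.4 to 31.8). Another EBF1-H240A summit lay that near to 19.6% (16.5 to 23.1) of members and 23.4% (21.4 to 25.5) of other sites. An EBF1-H240A-only peak was within 10 kb of 15 members (2.67%, 1.63 to 4.36) and of 77 of the 1681 other sites (4.58%, 3.68 to 5.69), with overlapping intervals. At sites of the highest ratio quartile these 2 shares were 27.3% (23.8 to 31.1) and 6.95% (5.13 to 9.36). Both intervals lay above those of the members. Where the nearest EBF1-wt summit was within 10 kb, it was an EBF1-wt-only peak for 71 of 162 members (43.8%, 36.4 to 51.5) and for 178 of 497 other sites (35.8%, 31.7 to 40.1), with overlapping intervals. Of the 10 lowest members, 7 had an EBF1-wt-only peak and 3 had another member as the nearest EBF1-wt summit, at any distance. Over all 561 members, the nearest was an EBF1-wt-only peak at 277 (49.4%, 45.3 to 53.5), against 46.7% (44.3 to 49.1) at the other sites. It was another member at 94 (16.8%, 13.9 to 20.1), against 12.1% (10.6 to 13.7), at any distance, and these intervals did not overlap. Where the nearest summit was within 10 kb, the shares were closer, 15.4% (10.7 to 21.8) of 162 members and 13.1% (10.4 to 16.3) of 497 other sites. Within 20 kb they were 13.1% (9.33 to 18.1) and 12.8% (10.5 to 15.4). A pair of members can each be the other's nearest and count as 2 of the 94, which the intervals do not take into account.

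Of the 57 members with another EBF1-wt summit within 2 kb, the nearest was an EBF1-wt-only peak at 24, another member at 13, a site of the highest ratio quartile at 9 and a shared site between these quartiles at 11. Among 77 pairs of neighbouring shared sites with summits at most 2 kb apart, Spearman's rho of the pileup ratios was 0.20. Among 235 such pairs between 2 and 20 kb apart it was -0.10. All these sites come from the same 2 libraries, so the values are descriptions. The neighbour within 2 kb of a member had a median fragment ratio of 0.402 (n = 33), against 0.491 for the neighbours of other sites (n = 117). Of those 33 neighbours, 13 were themselves members and so low by the rule, as were 19 of the 117. Between 2 and 20 kb the medians were 0.452 (n = 86) and 0.457 (n = 303), near the 0.441 of the median shared site. The 13 of 57 members whose nearest summit within 2 kb was a member (22.8%, 13.8 to 35.2) compare with 19 of 183 other sites (10.4%, 6.75 to 15.6). Those intervals overlapped slightly. Most of the 13 were members that were each other's nearest, so each such pair counts as 2, also among the 33 neighbours above. The intervals do not take this into account and are too narrow.

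**Figure D4:**
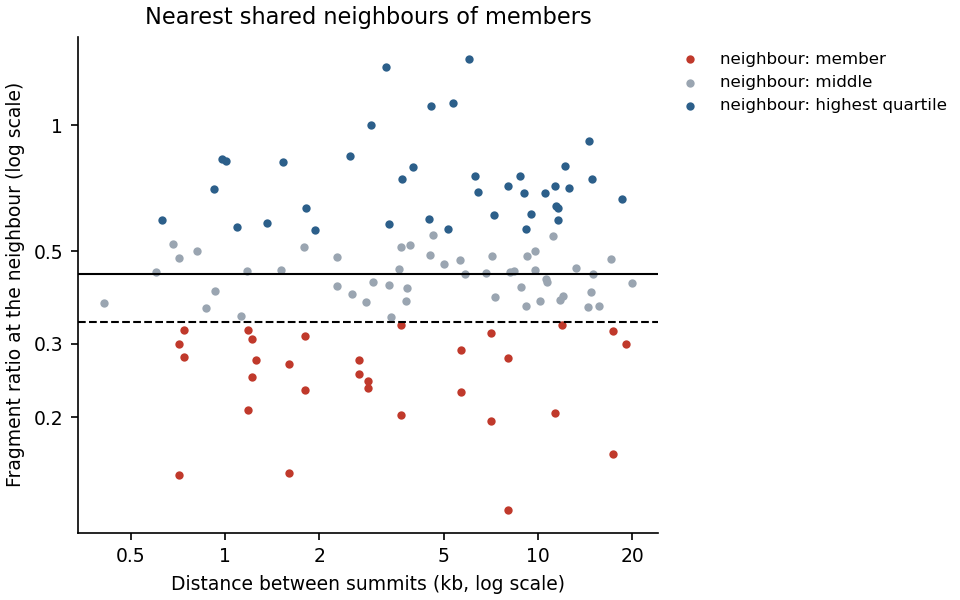
Distance from each member to its nearest EBF1-wt summit (horizontal, kb, log scale), where that summit is a shared site within 20 kb, against the fragment ratio at that neighbour (vertical, log scale); colours give the neighbour's own class, the solid line is 0.441 and the dashed line 0.338. Neighbours of each class occur both within 2 kb and beyond.

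Several close pairs of members were tall. At chr5:102363296-102363621 there were 102 EBF1-wt and 15 EBF1-H240A fragments, and 1606 bp away stood the 190 and 51 fragments of the tall member already described. On the same chromosome, the site with 110 and 16 fragments at chr5:138010858-138011229 lay 713 bp from chr5:138010016-138010653, with 184 and 55. In both pairs the 2 sites were members, but their fragment ratios differed, 0.147 against 0.268 in the first and 0.145 against 0.299 in the second. Chaining members whose summits lay within 20 kb gave 1 group of at least 3, on chromosome 10. It held chr10:43542491-43542793 (104 EBF1-wt and 24 EBF1-H240A fragments, ratio 0.231), chr10:43550120-43550532 (117 and 24, ratio 0.205) and chr10:43561561-43561830 (65 and 18, ratio 0.277). The counting interval of the last of these ratios, 0.155 to 0.473, covered the 0.441 of the median shared site, and the intervals of the others lay below it. The only other EBF1-wt peak within 20 kb of the group, chr10:43546607-43546882 with 38 fragments, was EBF1-wt-only. Most EBF1-wt peaks of that height were, 75.3% in the decile of 34 to 38 fragments and 70.6% in that of 38 to 42.

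Members were found on all 20 chromosomes examined, at 15.1% to 32.9% of the shared sites of each. Chromosome 4 had the lowest share, 23 of 152 sites (15.1%, 10.3 to 21.7), with a median fragment ratio of 0.466. Chromosome 12 had the highest, 26 of 79 (32.9%, 23.6 to 43.9), with a median ratio of 0.417. On chromosome 5, which has the second largest number of shared sites, 58 of 192 were members (30.2%, 24.2 to 37.0). The interval of chromosome 4 was the only one of the 20 that lay wholly below 25%, and none lay wholly above. It was picked as the extreme of 20 values, and its lower share has no replicate check. Chromosome X held 5 members among 18 shared sites.

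**Figure D5:**
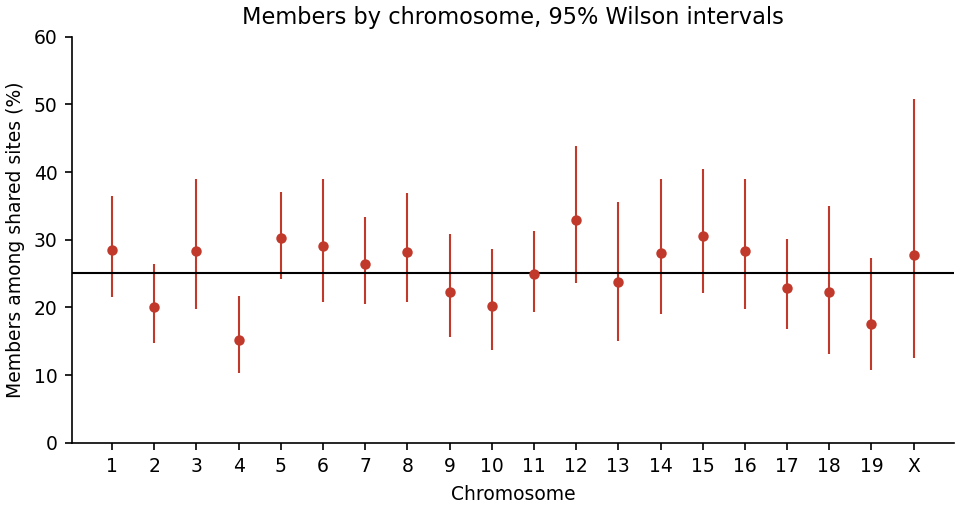
Share of the shared sites of each chromosome that were members (vertical, %, with 95% Wilson intervals, counting error only), by chromosome (horizontal); the line marks the overall share of 25%. Chromosome 4, at 15.1%, is the only one whose interval does not reach the line.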

How the data were processed

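Peak tables of the EBF1-wt and EBF1-H240A ChIP libraries were analysed; inputs entered only through the peak caller's values. The submitters' processing notes name mm9, MACS2 (version 2.1.0.20150731), HOMER (4.6), Bowtie2, Picard, SAMtools and bcl2fastq (1.8.4); their settings were not stated. Per the labels' protocols, chromatin was sheared to an average of 300 bp and amplified for 10 PCR cycles. Per the file headers, the deposited tables give each peak's summit pileup (a coverage signal), a fold enrichment (a ratio to local background), p-values and q-values on the −log10 scale, and width (other values, in bp). PCR reads are not independent molecules.

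Fragments are pileup divided by the smallest step; 100% of 234 distinct EBF1-wt pileups lay within 0.005 of a multiple. Background is (pileup + 1) / fold − 1. Relative depth assumes that the shortest peak equals the fragment length and that both runs used the same genome size. Intervals are 95% Wilson for shares, exact Poisson for counts and exact binomial for fragment ratios. Python 3.11.15, numpy 2.4.6, pandas 2.3.3 and scipy 1.17.1 were used. Pairing and thresholds were tested on simulated lists (6 of 6 checks passed).

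Named sites are the 10 lowest ratios, the 10 tallest members by EBF1-wt pileup, 3 on each side of the threshold, and groups of at least 3 members chained within 20 kb; close pairs of members were chosen after their values were seen. Members and measures were chosen with earlier results of these data known. No mm9 sequence or annotation was used, so motifs, genes and location were not analysed here.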

Additional observations from a re-analysis of the deposited data

How the results depend on the processing

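The limits are 1 library per protein, unequal depth, and counts as low as 11 EBF1-H240A fragments at a member. Of 86 alternative values, 56 stayed within the counting interval of the main value (or 1.5 times the main count) and 30 moved. Of the members, 541 and 537 were kept with 50% reciprocal overlap and with summits within 100 bp. With the fold ratio 368 were kept, and 401 with the ratio ranked within deciles of EBF1-wt pileup. When only peaks with a −log10 q from 10 upwards entered, 349 were kept. Those are all the members whose EBF1-H240A peak passed that limit. Without chromosome 17, which held 34 members, 524 were kept.

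Median EBF1-wt fragments at members (84) became 98 with the q limit, 71 within deciles and 91 at the 10th percentile, which leaves 225 members. EBF1-H240A fragments (22) became 27, 18 and 20 in that order, and 24 with the fold ratio. EBF1-wt width (361 bp) became 373.5, 342 and 370, and EBF1-H240A width (310 bp) 342.5, 292 and 293. The −log10 q became 54.1, 33.9 and 48.9 for EBF1-wt (from 42.7, and 46.9 with the fold ratio) and 18.2, 9.34 and 9.74 for EBF1-H240A (from 12.4). EBF1-H240A background (1.74) became 1.67 with the q limit, 1.62 within deciles and 2.29 with the fold ratio, where EBF1-wt background was 2.28. With the q limit the summit distance was 22 bp and the share with an EBF1-wt neighbour within 10 kb was 22.8% (from 28.9%). For the 561 main members, without that limit, the share was 10.2% within 2 kb and 40.8% within 20 kb. The lowest chromosome share was 6.04% at the 10th percentile. Motif and gene alternatives were not run. No paired analysis was possible because each protein has a single library.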

Other observations

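Opposite ratios occurred at sites less than 2 kb apart. Of the 57 members with an EBF1-wt summit within 2 kb, 9 (15.8%) had a nearest neighbour in the highest quartile of the ratio. At the other shared sites with a summit that near, the share was 22.4% (41 of 183), and the counting intervals overlapped. Such neighbours were thus not more frequent beside members. The sites named here were picked after their values were seen. The widest contrast was on chromosome 19, where the member at chr19:5661316-5661747 had 89 EBF1-wt and 23 EBF1-H240A fragments and its neighbour 1010 bp away, chr19:5662460-5662671, had 28 and 23. Their fragment ratios were 0.258 (0.156 to 0.412) and 0.821. The neighbour had fewer EBF1-wt fragments than the 29.6 that a member needed. As a shared site it could therefore only have a ratio above the threshold. At chr5:123765198-123765592 there were 170 and 52 fragments, and 981 bp away, at chr5:123764272-123764512, 41 and 34. In both cases the EBF1-H240A counts of the neighbouring sites were closer to each other than the EBF1-wt counts were. In 2 other cases both sites were tall: chr8:108576357-108576754 had 104 and 30 fragments beside chr8:108578181-108578658 with 211 and 134, and chr17:29200635-29201019 had 107 and 30 beside chr17:29199375-29199971 with 272 and 155. There the member was the lower site in both lists. None of these contrasts has a replicate check.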
